A study of Mus musculus with 8 samples.

Results

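Kinesins are motor proteins that use ATP to walk along microtubules or to shorten them. One set of them builds and moves the mitotic spindle and completes cell division, and others carry vesicles, organelles and ciliary parts in cells that are not dividing. Division motors are made mainly in G2 and mitosis in cycling cells, and their promoters often hold the cell cycle homology region and CCAAT boxes, elements read by cell cycle regulators and by NF-Y. The kinesin genes were taken from the table of gene counts by symbol, as Kif followed by a digit or a c, with hyphenated pseudogene and opposite-strand symbols dropped. This gave 44 of 54838 genes. Of these, 42 encode motors. The other two are Kif1bp, which encodes a protein that binds kinesins, and Kif16bos, an antisense transcript.

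The samples were poly(A) RNA from male mouse induced pluripotent stem cells (labelled ESC), grown on irradiated feeder cells with serum, LIF and inhibitors of MEK and GSK3, and 2 independent clones served as replicates. Asynchronous cells cycled freely. The mitotic group was passaged to gelatin, arrested with the microtubule drug nocodazole (200 ng/ml, 6 h) and shaken off. Washed free of the drug, such cells gave the early G1 group after 1 h and the late G1 group after 3 h. Each of the 4 groups had 2 libraries. No genetic change is named, and the protocol for RNA extraction speaks of asynchronous cells only. Every state except the asynchronous one had passed through the drug, the shake-off and the change of plate, so these cannot be told apart from the cell cycle in comparisons with asynchronous cells. Libraries held 20410621 to 25615244 counts.

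The labelled cell type was checked first. Summed over 12 marker genes of pluripotent cells, the level was 6097 to 7792 CPM in the 8 libraries, and none was at 0. Levels (CPM) are counts scaled to library size with TMM factors. The 25 markers of feeder fibroblasts summed to 1649 and 1694 CPM in the asynchronous libraries and to 202 to 268 CPM in the other 6. The 12 macrophage markers summed to 85.6 to 86.2 CPM in asynchronous, 102 to 118 in mitotic and 41.6 to 49.3 in G1 libraries. Both asynchronous libraries lay apart from each other. The median gap between replicates over the 41 kinesin genes tested was 0.34 on the log2 scale there, against 0.275 for the mitotic pair, 0.106 for early G1 and 0.0811 for late G1. The asynchronous replicate 1 was more than 1 log2 unit above replicate 2 for Kif20a, Kif5b, Kif18a, Kif16b, Kif21a, Kif9 and Kif28, and Kif19a lay as far the other way.

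The family was carried by its division motors. The 42 motor genes together stood at 2477 and 2008 CPM in asynchronous cells, 3066 and 2610.3 CPM in mitotic cells, 2579 and 2674 CPM after 1 h and 2507 and 2467 CPM after 3 h. Of this, 12 spindle and division motors held 63.8% and 65.5% in the asynchronous libraries, 70.8% and 71.4% in the mitotic ones, and between 64.7% and 67.1% in G1. The mitotic shares lay above all the others. Counting by length, as mean CPM per kb of exon, the highest levels in asynchronous cells were those of Kif22 (43.8 ± 9.96, SD, n = 2), Kif2c (37.8 ± 2.23), Kifc1 (35.7 ± 5.61), Kif23 (32.8 ± 4.20) and Kif20a (28.8 ± 13.7), and the libraries of each overlapped those of the next in this order. In mitotic cells the order was headed by Kif20a (96.0 ± 18.1 CPM per kb), then Kifc1 (63.8 ± 8.81), Kif22 (57.3 ± 3.30) and Kif2c (52.7 ± 6.18), of which Kif20a stood apart and each of the others overlapped the next. The transport motor nearest to them was Kif5b, at 12.05 ± 6.12 CPM per kb in asynchronous cells and 29.3 ± 0.179 in late G1. At the other end, Kif2b had 0 counts in all libraries, which allows up to 0.116 to 0.152 CPM in each. Kif12 had 1 count in all and Kif16bos 10, and these 3 were not tested.

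**Figure D1:**
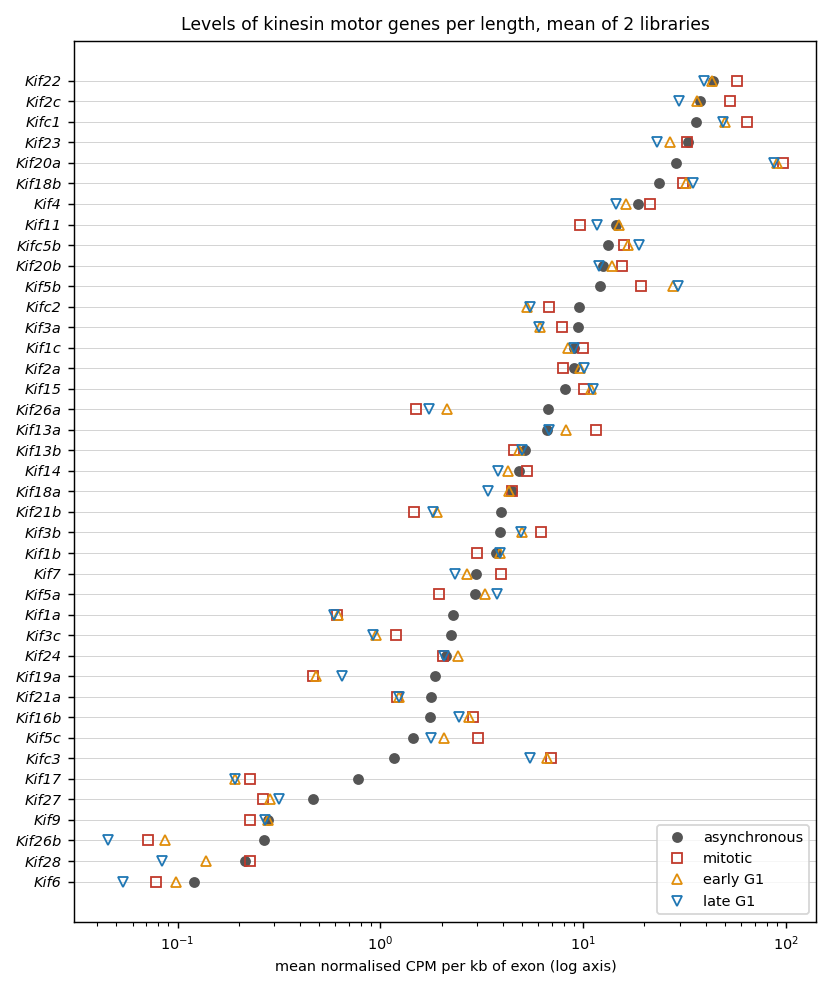
Mean level of each kinesin motor gene with counts in asynchronous cells, in CPM per kb of exon on a log axis, with 1 symbol for each of the 4 states (n = 2 libraries each). Kif20a moved from 28.8 in asynchronous cells to 96.0 in mitotic cells, and Kif17, Kif26b and Kif1a lay to the right in asynchronous cells.

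Promoters of the division motors are shown because the letters they share were not used to choose them. RefSeq promoters of the GRCm38.p6 build, which run from 250 bases before the start to 50 after it, were matched for 34 of the 44 genes. The core of the cell cycle homology region was searched as TTTGAA and the CCAAT box as CCAAT, on both strands. The motifs can share an end letter. TTTGAA was in the window of 10 of the 11 matched among the 12 division motors, against 17.9% of all 32851 promoters. It lay within 50 bases of the start in 8 of these 11, against 4.94% of all promoters. CCAAT was in 7 of these 11, against 37.4% of all. With Kif2a, Kif2b, Kif24 and Kifc5b added, TTTGAA was in 11 of 15 matched genes. Among motors outside spindle and division it was in 3 of 18 (Kif1a, Kif26b and Kif27). Capitals mark both motifs, TTCAAA and ATTGG being their other strand. Start means the RefSeq start, which can differ from the GENCODE gene end: by GENCODE the Kif2c stretch and the TTCAAA of Kif15 and Kif22 lie inside the gene. Kif14 is not shown, its match lying 228 bases before the start. The first 4 stretches lie before the RefSeq start and hold TTCAAA, and that of Kif2c was placed further out to hold its match 103 bases before the start:
Kif11, chr19:37376302-37376381, plus strand: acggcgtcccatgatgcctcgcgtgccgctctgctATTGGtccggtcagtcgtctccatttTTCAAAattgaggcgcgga
Kif15, chr9:122951001-122951080, plus strand: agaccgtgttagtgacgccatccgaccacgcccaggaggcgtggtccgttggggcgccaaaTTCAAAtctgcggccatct
Kif22, chr7:127042421-127042500, minus strand: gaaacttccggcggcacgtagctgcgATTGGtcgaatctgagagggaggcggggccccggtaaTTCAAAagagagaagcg
Kif2c, chr4:117178803-117178882, minus strand: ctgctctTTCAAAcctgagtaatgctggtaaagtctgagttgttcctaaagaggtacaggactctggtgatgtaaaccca
In the next 5 the match lies after the start, and 30 bases are shown:
Kif18b, chr11:102925104-102925133, minus strand: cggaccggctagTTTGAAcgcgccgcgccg
Kif20b, chr19:34922353-34922382, plus strand: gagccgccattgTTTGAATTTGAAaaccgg
Kif23, chr9:61946780-61946809, minus strand: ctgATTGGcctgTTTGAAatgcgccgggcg
Kif4, chrX:100626072-100626101, plus strand: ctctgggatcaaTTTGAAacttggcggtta
Kifc1, chr17:33890615-33890644, minus strand: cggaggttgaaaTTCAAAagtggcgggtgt
Kif18a was the 1 of the 11 without these letters in its window, and is shown for contrast:
Kif18a, chr2:109280658-109280737, plus strand: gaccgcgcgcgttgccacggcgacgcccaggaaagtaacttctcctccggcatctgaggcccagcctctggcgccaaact
The motif pair stood closest in Kif23, where ATTGG and TTTGAA lay within the same 30 bases, and Kif20b held TTTGAA in tandem. A match is a description of the letters and not a bound site.

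Kinesin genes moved in both directions between asynchronous and mitotic cells, at a share near that of all genes (41.5% against 40.7%). Of 41 tested, 8 were higher in mitotic cells, 9 were lower and 24 were not called (edgeR quasi-likelihood test, Benjamini-Hochberg adjusted p under 0.05 over all 19101 genes tested), while 18.3% of all genes were called higher and 22.4% lower. The median log2 change of the kinesin genes was 0.0040, against -0.049 over all genes tested. Of the 15 spindle and division genes tested, 3 were higher, 0 lower and 12 not called. Of the 25 motors outside that group, 4 were higher, 9 lower and 12 not called. Across all 4 states, 21 of the 41 differed in an overall test, against 48.5% of all genes.

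Kif20a (ENSMUSG00000003779, chromosome 18, 34624613 to 34633277, GRCm38), the kinesin-6 that carries the chromosomal passenger complex to the spindle midzone, stood at 167 and 82.8 CPM in asynchronous cells, 472 and 361 in mitotic cells, 385 and 395 in early G1, then 376 and 377 in late G1. All 6 libraries that had passed through the drug lay above both asynchronous ones. It was 3.33-fold higher in mitotic than in asynchronous cells (log2 1.74, SE 0.29, adjusted p = 0.00264), and 3 h after release it had not returned, at 3.01-fold (adjusted p = 0.00293). Of its exon bases, 29.3% overlap Cdc23 on the other strand. Cdc23, an anaphase-promoting complex gene, stood at 103 and 64.4 CPM in asynchronous cells and 161 to 218 CPM in the other libraries, and was also higher in mitotic cells (log2 1.01, adjusted p = 0.00562). The strand setting of the counting is not given, and the part of Cdc23 reads in the Kif20a value was not tested.

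Kif2c (ENSMUSG00000028678, chromosome 4, 117159639 to 117182639), the kinesin-13 that shortens microtubules at centromeres, peaked at the arrest. It stood at 172 and 158 CPM in asynchronous cells, 249 and 211 in mitotic cells, 159 and 158 in early G1, then 129 and 128 in late G1. Both mitotic libraries were the highest of the 8 and both late G1 libraries the lowest. It rose 1.40-fold at the arrest (log2 0.48, SE 0.12, adjusted p = 0.0161), fell in the first hour (log2 -0.54, adjusted p = 0.0488) and was lower still in late G1 (log2 -0.84 against mitotic cells, adjusted p = 0.00869). In late G1 it lay below asynchronous cells (log2 -0.36, adjusted p = 0.0420). This last call was not made by the DESeq2 Wald test (adjusted p = 0.0510), by edgeR without the low-count filter or by the fit of the compared groups alone.

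Kifc1 (ENSMUSG00000079553, chromosome 17, 33875659 to 33890661), the minus-end directed kinesin-14 that focuses spindle poles, stood at 135 and 108 CPM in asynchronous cells, 239 and 197 in mitotic cells, 168 and 172 in early G1, then 168 and 165 in late G1. The groups of asynchronous and mitotic cells did not overlap, and it rose 1.79-fold (log2 0.84, SE 0.15, adjusted p = 0.00345). Its copy Kifc5b, on the same chromosome, stood at 54.3 and 43.3 CPM against 56.8 and 61.1 CPM and was not called. Of the 50-base runs in Kifc1 transcripts, 38.6% also occur in Kifc5b. Reads from these runs could have been split between the pair or left uncounted, so both values are uncertain.

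In that comparison the other 9 division motors were not called. Kif11, the kinesin-5 that pushes spindle poles apart, was the lowest of them in change, at 135 and 80.5 CPM in asynchronous cells, 78.7 and 64.5 in mitotic cells, 105 and 118 in early G1, then 86.6 and 87.9 in late G1. Its mitotic libraries were the lowest of the 8 (log2 -0.59, adjusted p = 0.0690). Some other fits called Kif11 lower: the DESeq2 Wald test (adjusted p = 0.0484) and edgeR without the low-count filter (adjusted p = 0.00357). An edgeR term for replicate 1 of the asynchronous and mitotic groups did so too (adjusted p = 0.00232). The size of the Kif11 change depended on the asynchronous libraries, of which replicate 2 (80.5 CPM) lay close to mitotic replicate 1 (78.7 CPM). It was log2 -0.91 without asynchronous replicate 2 and -0.31 without both replicate 1 libraries of these groups. Kif15, the kinesin-12 that backs up Kif11, stood at 99.6 and 78.7 CPM, then 117 and 106, 115 and 126, and 125 and 122 in the same order of states. It did not overlap between asynchronous and late G1 cells, where it was 1.39-fold higher (adjusted p = 0.0263).

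Among the chromokinesins, which bind chromosome arms, Kif22 stood at 180.0 and 249 CPM in asynchronous cells, 293 and 269.6 in mitotic cells, 216 and 207 in early G1, then 192 and 194 in late G1. Kif4 stood at 84.7 and 120.3 CPM, then 104 and 132, 86.2 and 92.3, and 78.7 and 81.3. For both, the late G1 libraries lay below both mitotic ones without a call (adjusted p = 0.0681 and 0.0984). Exons of Kif4 overlap Pdzd11 on the other strand over 15.1% of their bases.

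Of the kinesin-8 motors, Kif18a, which dampens chromosome movements at the metaphase plate, stood at 60.2 and 27.3 CPM in asynchronous cells, 48.1 and 39.8 in mitotic cells, 40.8 and 43.4 in early G1, then 34.7 and 31.9 in late G1. The asynchronous pair spanned all other libraries, and the change in mitotic cells was 0.69 without asynchronous replicate 1 and -0.46 without replicate 2, both called. Kif18b, which acts on astral microtubules, stood at 94.2 and 73.7 CPM, then 122 and 98.3, 109 and 119, and 124 and 124. It was 1.48-fold higher in late G1 than in asynchronous cells (adjusted p = 0.0208), with no overlap between those groups.

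Of the motors of cytokinesis, Kif23, the motor of centralspindlin at the midzone, stood at 283 and 236 CPM in asynchronous cells, 268 and 242 in mitotic cells, 212 and 210.0 in early G1, then 182 and 181 in late G1. All 4 G1 libraries lay below the 4 others. It was lower in late G1 than in mitotic cells (log2 -0.49, SE 0.13, adjusted p = 0.0486) and than in asynchronous cells (log2 -0.51, adjusted p = 0.0113). Kif20b stood at 113 and 60.2 CPM, then 116 and 98.7, 91.9 and 99.9, and 84.8 and 81.6. Kif14, which recruits citron kinase, stood at 58.8 and 41.3 CPM, then 63.7 and 45.2, 42.5 and 45.9, and 41.1 and 37.4. Neither was called in any of the 5 comparisons, and their asynchronous and mitotic libraries overlapped. Kif20b in late G1 against asynchronous cells was at log2 0.47 without asynchronous replicate 1 and -0.44 without replicate 2, both called. Outside the 12, the microtubule-shortening Kif2a (50.5 to 65.9 CPM) and Kif24 of the mother centriole (12.5 to 21.2 CPM) were not called either.

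**Figure D2:**
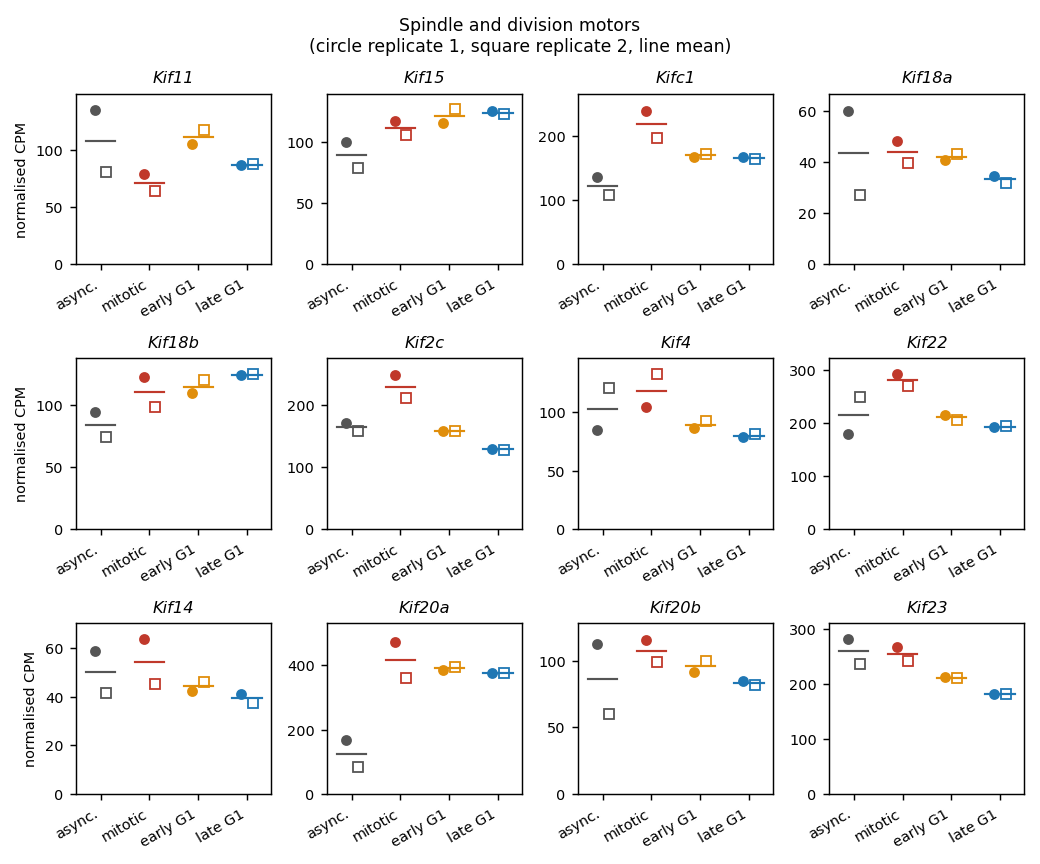
Level of 12 spindle and division motor genes in each library, in normalised CPM on axes that start at 0. Circles are replicate 1, squares replicate 2 and lines the mean of 2 libraries. Kif2c peaks in mitotic cells at 249 and 211 CPM, Kif20a stays between 361 and 472 CPM in the libraries after the drug, and Kif23 falls to 182 and 181 CPM in late G1.

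The 5 largest called changes at the arrest all lay outside division and were led by Kifc3 (ENSMUSG00000031788, chromosome 8, 95099828 to 95202812), a minus-end directed kinesin-14 linked to adherens junctions. It stood at 6.85 and 5.53 CPM in asynchronous cells, 49.0 and 24.8 in mitotic cells, 37.1 and 33.1 in early G1, then 30.7 and 26.8 in late G1. The asynchronous libraries were the lowest 2 by a wide margin, and the mitotic pair was spread across the G1 values. It was 5.94-fold higher in mitotic cells (log2 2.57, SE 0.31, adjusted p = 6.68e-04) and 4.63-fold higher in late G1 (adjusted p = 9.20e-04).

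The other 4 of these changes were lower levels in mitotic cells, and each stayed low in G1. Kif26a, a kinesin-11 that has lost ATPase activity, stood at 45.2 and 47.7 CPM in asynchronous cells, 9.95 and 10.8 in mitotic cells, 14.9 and 14.7 in early G1, then 13.9 and 10.2 in late G1 (log2 -2.16 in mitotic cells, SE 0.18, adjusted p = 1.34e-04). Its relative Kif26b stood at 3.54 and 4.31 CPM, then 0.927 and 1.17, 1.51 and 1.04, and 0.821 and 0.516 (log2 -1.90, adjusted p = 0.00314). Kif1a, a kinesin-3 carrier of synaptic vesicle precursors, stood at 21.9 and 20.5 CPM, then 4.72 and 6.69, 5.38 and 6.14, and 5.97 and 5.02 (log2 -1.89, adjusted p = 5.17e-04). In all 3 genes both asynchronous libraries lay above the 6 others. Kif19a, a kinesin-8 that sets the length of motile cilia, stood at 4.62 and 10.4 CPM, then 1.31 and 2.46, 1.94 and 1.97, and 2.37 and 2.91 (log2 -1.99, adjusted p = 0.00829). The feeder fibroblast markers were lower in the same 6 libraries, 19 of 23 tested being called lower in mitotic cells and 1 higher, with up to 3 of 25 at 0 in a library (Fap and Twist2 most often, in 5 libraries each). Their part in these kinesin changes was not tested, and in bulk RNA fewer cells of a type and less RNA per cell cannot be told apart.

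Motors of cilia gave further changes. Kif17, a kinesin-2 of cilia and dendrites, stood at 3.15 and 3.95 CPM in asynchronous cells, 1.26 and 0.820 in mitotic cells, 0.992 and 0.773 in early G1, then 0.821 and 0.938 in late G1. It was lower in mitotic cells (log2 -1.76, adjusted p = 0.00379) and 4.01-fold lower in late G1 (adjusted p = 0.00189). Of the kinesin-2 subunits of intraflagellar transport, Kif3b was 1.59-fold higher in mitotic cells (adjusted p = 0.00848) while its partner Kif3a was not called (33.7 ± 0.526 CPM in asynchronous and 28.1 ± 1.33 CPM in mitotic cells) and Kif3c was lower (log2 -0.91, adjusted p = 0.0107). Of Kif3c's exon bases, 35.3% overlap a long noncoding gene, 1110002L01Rik, on the other strand. Kif7, the kinesin-4 that organises the tip of the primary cilium in Hedgehog signalling, stood at 13.7 and 13.4 CPM, then 20.5 and 15.6, 11.9 and 12.5, and 9.94 and 11.4, and was lower in late G1 than in mitotic cells (log2 -0.76, SE 0.18, adjusted p = 0.0373). Kif27, Kif6 and Kif9 had mean levels of 2.44 CPM or less in every state and were not called.

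The kinesin-1 genes, which encode the heavy chains of the conventional transport motor, changed in opposite directions at the arrest. Kif5a (ENSMUSG00000074657, chromosome 10, 127225696 to 127263348) stood at 20.9 and 20.1 CPM in asynchronous cells, 14.1 and 13.0 in mitotic cells, 22.1 and 23.8 in early G1, then 27.2 and 25.4 in late G1. Its mitotic libraries were the lowest 2 and its late G1 libraries the highest 2. It was lower at the arrest (log2 -0.60, SE 0.14, adjusted p = 0.0111), 1.70-fold higher 1 h after release (adjusted p = 0.0265) and 1.94-fold higher after 3 h (adjusted p = 0.00841). Kif5c (ENSMUSG00000026764, chromosome 2, 49619298 to 49774778) moved the other way at the arrest, at 11.6 and 9.08 CPM, then 22.8 and 20.3, 13.8 and 15.4, and 12.5 and 12.9. Both mitotic libraries were the highest of the 8. It was 2.08-fold higher at the arrest (log2 1.05, SE 0.17, adjusted p = 0.00256) and lower in late G1 than in mitotic cells (log2 -0.76, adjusted p = 0.0333). In late G1 against asynchronous cells Kif5a and Kif5c were both higher without a call (log2 0.36 and 0.30). Kif5b, the form found in most tissues, stood at 131 and 61.6 CPM, then 177 and 129.7, 211 and 230.0, and 233 and 235, so that all 4 G1 libraries lay above the 4 others. It was called between late G1 and asynchronous cells, at 2.43-fold higher (log2 1.28, adjusted p = 0.0102). The log2 change was 1.93 without asynchronous replicate 1 and 0.84 without replicate 2.

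Most other transport motors were not called. Kif13a, a kinesin-3 of endosomes, was 1.74-fold higher in mitotic cells (93.9 ± 16.7 against 53.8 ± 17.3 CPM, adjusted p = 0.0206). Kif13b, Kif1b, Kif1c and Kif16b, of the same class, ran from 10.4 to 78.8 CPM over all libraries, and Kif28 from 0.188 to 1.27 CPM, and none of the 5 was called in any comparison. Kif21b, a kinesin-4 that slows microtubule growth, was lower in mitotic cells (17.8 ± 2.80 against 47.7 ± 3.71 CPM, log2 -1.42, adjusted p = 5.70e-04), while Kif21a was not called (7.84 ± 0.469 against 11.5 ± 6.88 CPM). Kifc2 was lower (26.7 ± 0.516 against 37.6 ± 6.04 CPM, log2 -0.49, adjusted p = 0.0314), and Kif1bp, the binding protein, 1.40-fold higher (adjusted p = 0.0146).

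**Figure D3:**
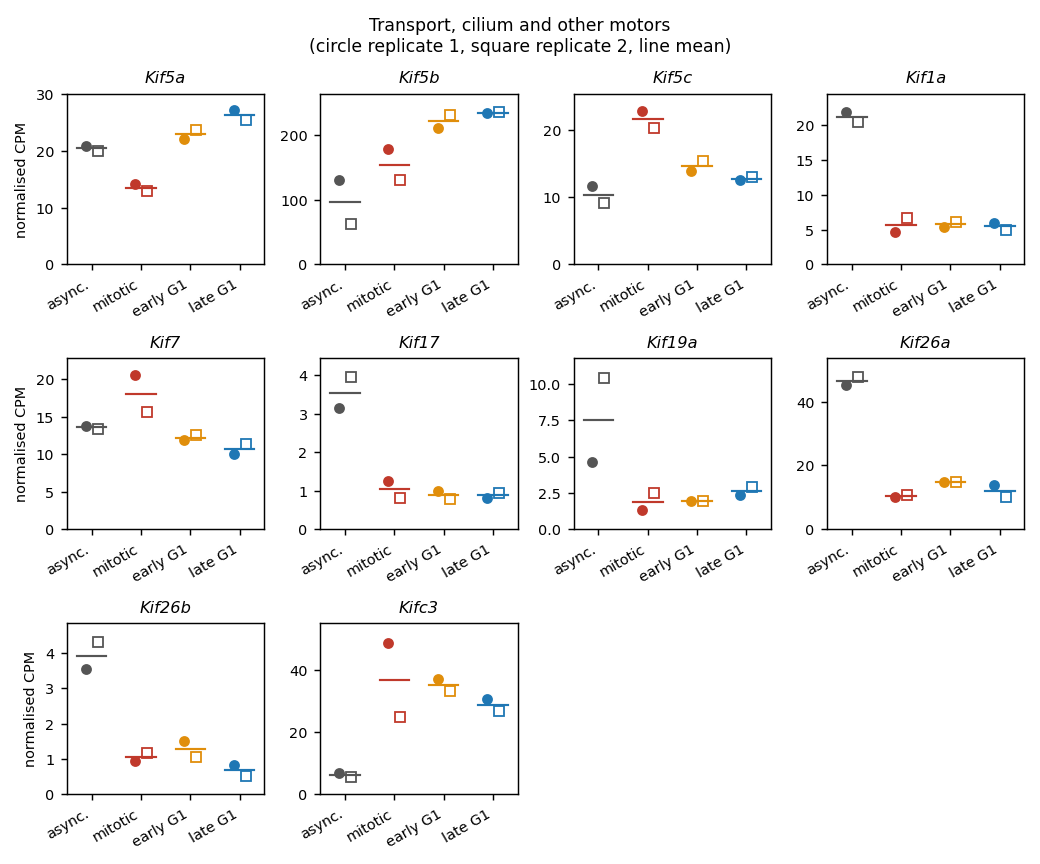
Level of 10 transport, cilium and other motor genes in each library, in normalised CPM on axes that start at 0. Circles are replicate 1, squares replicate 2 and lines the mean of 2 libraries. Kif5a is lowest and Kif5c highest in mitotic cells, Kif5b is highest in G1, and Kif1a, Kif17, Kif19a, Kif26a and Kif26b are highest in the asynchronous pair.

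Leaving out 1 library ended some of these calls between mitotic and asynchronous cells. Without mitotic replicate 1 they were those of Kif13a, Kif19a, Kif1bp, Kif2c, Kif3b, Kif3c and Kifc2 (adjusted p from 0.0505 to 0.130), and without mitotic replicate 2 those of Kif3c, Kif5a and Kifc2 (0.0616 to 0.0963). Kifc2 was also lost without asynchronous replicate 2 or any 1 of the G1 libraries (0.0606 to 0.0770). Without asynchronous replicate 1 there were 15 higher and 9 lower (52.2% of all genes called), and without replicate 2 there were 10 and 14 (44.2%). The log2 change of Kif20a was 2.34 without asynchronous replicate 1, and that of Kif19a was -1.29 without replicate 2. The calls of Kif20a, Kifc1, Kifc3, Kif5c, Kif1a, Kif17, Kif21b, Kif26a and Kif26b held in each of the 15 alternative fits.

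The first hour after release brought few called changes in the family. Of 41 tested, 1 gene rose (Kif5a), 1 fell (Kif2c) and 39 were not called, where 3.21% and 1.42% of all genes were called higher and lower. The median was -0.063, against -0.011 over all genes. Both calls rested on every library of 3 groups: without any 1 of the mitotic, early G1 or late G1 libraries neither was called (adjusted p from 0.0885 to 0.360). The asynchronous libraries are not compared here, but enter through the filter, the scaling and the shared estimate of the spread. Without either of them, more kinesin genes and a larger share of all genes were called. Leaving out both replicate 1 libraries of the asynchronous and mitotic groups gave 12 higher and 10 lower, Kif11, Kif5a and Kif5b among the higher ones and Kif4, Kif2c and Kif22 among the lower, and 40.1% of all genes were called there.

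Between early and late G1 no kinesin gene was called, nor was any other gene (0% of 19101, edgeR). At an unadjusted p under 0.05, 2 kinesin genes were lower in late G1 and 0 higher, where 3.79% of all genes passed. DESeq2 called 0 kinesin genes and 0.141% of all genes. In the fit of these 2 groups alone, of 40 tested, 7 were lower and 0 higher, where 4.94% and 3.50% of all genes were called lower and higher. The 7 were Kif11 (log2 -0.35, adjusted p = 1.60e-04), Kif2c (-0.30, adjusted p = 3.44e-04), Kif18a (-0.34), Kif23 (-0.22), Kif20b (-0.20), Kif13a (-0.27) and Kifc3 (-0.28), so that 5 of them were division motors.

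Over the whole 3 h after release, 1 gene rose (Kif5a), 4 fell (Kif2c, Kif7, Kif5c and Kif23) and 36 were not called, where 5.43% of all genes were called higher and 4.04% lower (9.48% together). The median was -0.23, against -0.014 over all genes, and among the 12 division motors it was -0.40 with 2 called lower and 0 higher. Each call was lost without some library. Without late G1 replicate 1 or 2, or without mitotic replicate 1, none of the 5 was called (adjusted p from 0.0578 to 0.286). Without mitotic replicate 2 only Kif2c was called, and without either early G1 library only Kif2c and Kif5a. Without either asynchronous library, 4 were higher and 13 lower, and all genes were called at 27.5% in both fits. Without both replicate 1 libraries of the asynchronous and mitotic groups, 9 were higher and 12 lower, against 43.2% of all genes.

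Late G1 cells differed from asynchronous cells in 19 of the 41, 8 higher and 11 lower, with 22 not called, against 22.7% and 26.0% of all genes (48.7% in all). This comparison shares its control samples with that of mitotic cells. Those called higher held 5 division genes, Kif20a, Kif18b, Kif15, Kifc1 and Kifc5b (1.36- to 3.01-fold), and Kif23 and Kif2c were lower. The largest called changes outside division were those of Kif26b (log2 -2.54, SE 0.35), Kifc3 (2.21), Kif26a (-1.95), Kif1a (-1.94) and Kif17 (4.01-fold lower), and Kif3a was called in none of the other comparisons (log2 -0.64, adjusted p = 0.00468). Without late G1 replicate 2, 2 were higher and 7 lower, the lost calls being those of Kif15, Kif18b, Kif19a, Kif1bp, Kif23, Kif2c, Kif3a, Kif5b, Kifc1 and Kifc5b (adjusted p from 0.0503 to 0.199). Without late G1 replicate 1 all of these except Kif3a and Kif5b were lost (0.0885 to 0.189), without either early G1 library Kif15, Kif1bp, Kif2c and Kifc1 (0.0522 to 0.104), and without asynchronous replicate 2 Kif19a and Kifc1 (0.0627 and 0.0798). Without asynchronous replicate 1, 16 were higher and 13 lower (57.7% of all genes called), and without replicate 2, 7 and 16 (48.1%). The log2 change of Kif20a was then 2.19 without replicate 1, and that of Kif19a -0.81 without replicate 2.

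**Figure D4:**
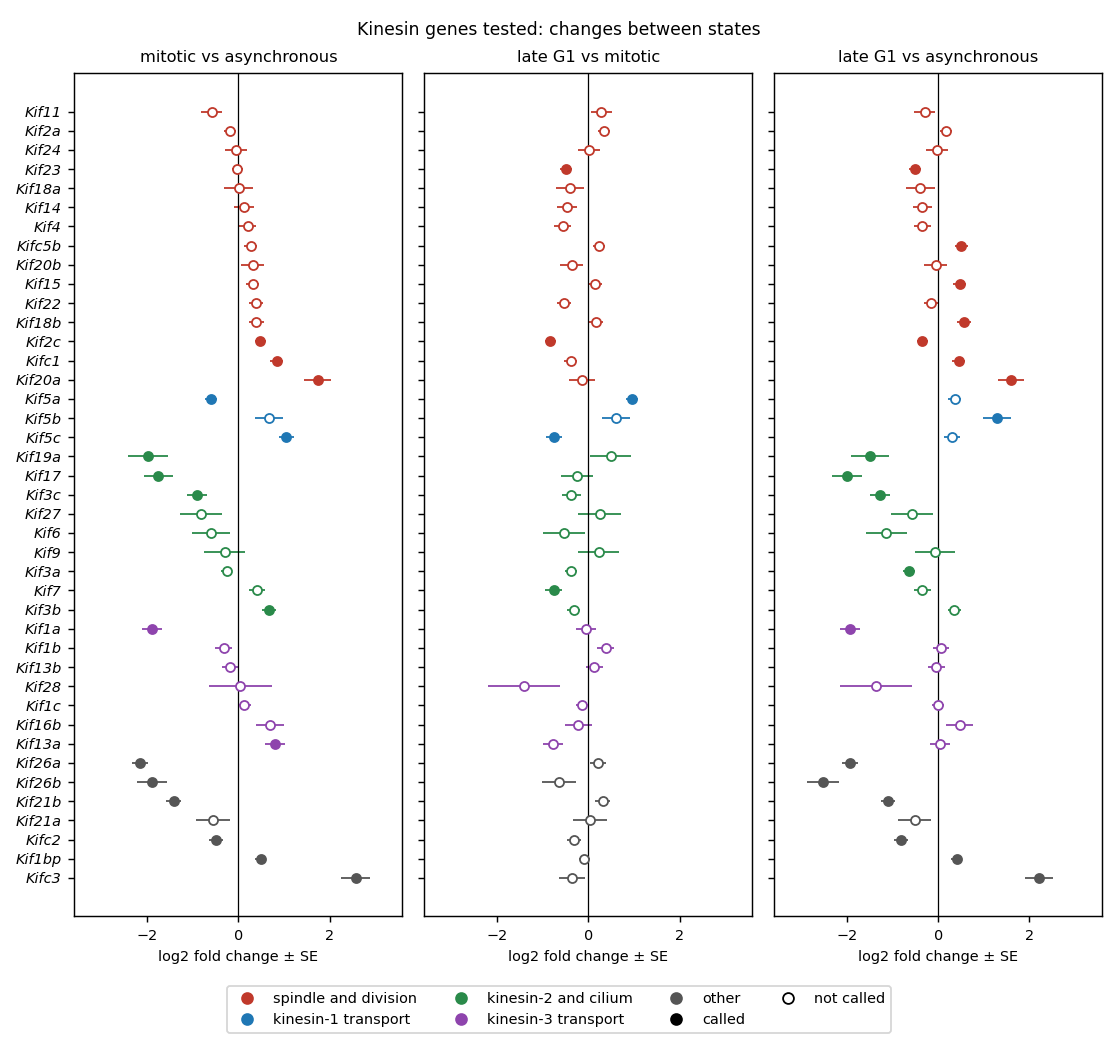
Log2 fold change of each of the 41 kinesin genes tested, with its SE, in mitotic against asynchronous, late G1 against mitotic and late G1 against asynchronous cells, coloured by role. Filled points were called. Kif20a and Kifc3 lie to the right and Kif26a, Kif26b, Kif1a and Kif17 to the left in both comparisons with asynchronous cells, while in late G1 against mitotic cells only Kif2c, Kif23, Kif5a, Kif5c and Kif7 are filled.

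Partners of the motors were followed as a list of 34 light chains, adaptors and spindle proteins, 33 of them tested. In mitotic against asynchronous cells 5 were higher, 7 lower and 21 not called, with a median of -0.068, so that 36.4% were called against 40.7% of all genes (median -0.049). Aurkb, the kinase of the passenger complex that Kif20a carries, stood at 23.2 ± 0.719 CPM in mitotic and 121 ± 21.6 CPM in asynchronous cells (log2 -2.39, adjusted p = 5.67e-05), and Prc1, which bundles midzone microtubules and recruits Kif4, at 35.4 ± 5.82 against 102 ± 59.3 CPM (log2 -1.53, adjusted p = 0.00965). In the first hour after release 1 was higher (Aurkb, log2 1.30) and 1 lower (Plekhm2, -0.88), where 4.63% of all genes were called, and between early and late G1 0 were called. In late G1 against mitotic cells 1 was higher and 8 lower (27.3% of the list, against 9.48% of all genes), Aurkb (log2 1.03), Plk1 (-0.95) and the lysosome adaptor Plekhm2 (-0.87) having the largest changes. Cenpe, the kinesin-7 of kinetochores whose symbol lies outside the family's pattern, was among the 8, at 83.0 ± 4.73 against 145 ± 13.7 CPM (log2 -0.81, adjusted p = 0.0122). Against asynchronous cells late G1 had 2 higher and 13 lower (45.5%, against 48.7% of all genes), the largest changes being those of the light chain Klc3 (-1.48), the mitochondrial adaptor Trak1 (-1.43) and Aurkb (-1.35).

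Genes of dynein and dynactin, the motor that walks the other way, were tested beside them. Of 31, 9 were higher, 5 lower and 17 not called in mitotic against asynchronous cells, with a median of 0.23, so that 45.2% were called against 40.7% of all genes (median -0.049). The largest changes were those of Dync1i1, an intermediate chain (4.65 ± 0.0191 against 1.66 ± 0.191 CPM, log2 1.48), and of Hook3 and Dynlt3, an adaptor and a light chain (log2 -1.22 and -1.14). In the first hour after release 0 of the 31 were called (4.63% of all genes), and over 3 h 1 was (9.48% of all genes), Nde1, which was lower (log2 -0.64, adjusted p = 0.0444). In late G1 against asynchronous cells 6 were higher and 5 lower (35.5%, against 48.7% of all genes), with the largest changes in Dync1i1 (1.16), Hook2 (-0.98) and Dynlt3 (-0.94).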

How the data were processed

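The values are whole-number read counts per Ensembl gene that the authors deposited without normalisation, 54838 genes in 8 libraries. Libraries came from a stranded poly(A) kit read from one end at 50 bases, according to the labels' protocols. The submitters' processing notes name TopHat2, SAMtools, HTSeq and mm10, with versions, annotation release and strand setting not given in the sources used here. GENCODE M21 (GRCm38) named 54809 IDs and gave 1-based coordinates and exon lengths.

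Tests used edgeR 4.0.16 in R 4.3.3: filterByExpr (minimum count 10, 19101 genes kept), TMM and robust quasi-likelihood tests over all 8 libraries with 4 residual degrees of freedom. P-values were two-sided and Benjamini-Hochberg adjusted within a comparison. SE is the absolute log2 change over the square root of F. DESeq2 1.42.0, other fits and left-out libraries were alternatives. The procedure was tested on simulated data. Floors of 3 counts cover counting error only. Libraries were grouped by title. Labels name 2 clones as replicates without tying libraries to them, so p-values speak for these samples only. They and the SEs rest on an estimate of the spread shared by all 4 groups, which were unequal in it. By group, the spread between replicates (coefficient of variation) was 0.292 in asynchronous, 0.183 in mitotic, 0.0506 in early G1 and 0.0417 in late G1 cells. The main fit can thus understate the spread against asynchronous cells and overstate it between the G1 groups. Only genes past the filter were tested, so counts over them are descriptions.

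Members, lists and roles were chosen with earlier results of these data known. Every library is given for 12 division motors and for the 5 called members with the largest changes in each comparison and a mean of at least 1 CPM. Kif5b, Kifc5b and the overlapping genes were added after their values were seen. Of the partner and dynein lists the 3 largest called changes of a comparison are named, with Cenpe added. Some results that these rules would name are not reported here.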

Additional observations from a re-analysis of the deposited data

How the results depend on the processing

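Of the counts of called kinesin genes (higher, lower), DESeq2 size factors and DESeq2 itself moved none beyond 1.5 times. Fitting the compared groups alone gave 3 and 4 in the first hour, 4 and 9 between mitotic cells and late G1, 7 lower between early and late G1, 4 higher in mitotic than asynchronous cells and 3 higher in late G1 than asynchronous cells. All genes were called there at 15.3%, 22.2%, 8.44%, 21.3% and 35.5%, in the same order. No filter gave 3 higher in the first hour and 2 and 7 over 3 h, where 6.86% and 9.55% of all genes were called. A term for replicate 1 of the asynchronous and mitotic groups gave 7 and 6 in the first hour, 8 and 9 over 3 h, and 15 and 13 higher in mitotic and late G1 than in asynchronous cells. With this term for the 2 libraries, all genes were called at 30.8%, 34.5%, 57.7% and 62.5% in the same order. Without both of those libraries the counts were 12 and 10 in the first hour, 9 and 12 over 3 h, 7 lower between early and late G1, 15 and 19 higher against asynchronous cells, and 34 differing between any states. Leaving out each library gave 0 to 6 and 0 to 10 in the first hour, 0 to 4 and 0 to 13 over 3 h, 4 to 15 and 6 to 14 for mitotic and 2 to 16 and 7 to 16 for late G1 against asynchronous cells, and 14 to 33 differing between any states. In the comparisons that moved, the share of all genes called also went both up and down, and the cause was not tested. The lone library of a group was then assumed to vary like the other groups.

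Replicate numbers were shared between groups. Replicate deviations correlated at 0.463 between asynchronous and mitotic cells over 19101 genes and between -0.138 and 0.0205 in the other pairs of groups, so the numbers gave no common pairing. With a replicate block, 0 kinesin genes were called lower in the first hour, Kif2c having adjusted p = 0.0535, and no other count moved beyond 1.5 times.

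These changes, not called in all 8 libraries, reversed and were then called. Leaving out each library, Kif18a ran from log2 -0.46 (without asynchronous replicate 2) to 0.69 in mitotic against asynchronous cells, and Kif20b from -0.44 to 0.47 (without asynchronous replicate 1) in late G1 against asynchronous cells. Without both replicate 1 libraries, Kifc3 was at 0.50 in the first hour, and against asynchronous cells in late G1 Kif13b was at 0.23, Kif18a at 0.29, Kif20b at 0.47 and Kif24 at 0.40. Precision is limited by 2 libraries a group, and least precise are comparisons with the asynchronous pair, whose replicates differed most.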
